A study of Mus musculus with 6 samples.

Results

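The mouse mitochondrial genome encodes 13 proteins, 2 rRNAs and 22 tRNAs, and all 37 of these genes, taken as every gene whose symbol starts with mt-, were followed among the 46141 genes of the deposited table. The RNA came from peritoneal macrophages of healthy male Balb/c mice aged 6 to 8 weeks, purified by adherence after elicitation with thioglycollate broth (2 mL at 3%, 3 days before sampling). Mice then received BSN-37, for which the labels give no more than this code name (0.2 mL at 48 µg/mL into the peritoneum), or 0.2 mL of phosphate-buffered saline (PBS), and cells were collected 12 h later and left to adhere for 4 h. Each library pools 6 mice, with 3 libraries and 18 mice per group, so differences between single mice are not seen, and both groups carry the broth elicitation. The question was which mitochondrial RNAs differed in macrophages after BSN-37, against PBS.

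The mitochondrial genome is a small circle of DNA present in many copies per cell. It is transcribed along both strands into long precursors, and tRNAs placed between the other genes mark where these are cut. RNase P cuts at the 5′ end of each tRNA and ELAC2 at the 3′ end. The transcript called here heavy-strand carries both rRNAs, most tRNAs and all coding genes except mt-Nd6, which lies on the opposite, light-strand transcript. The proteins are subunits of respiratory complexes I, III and IV and of ATP synthase, and the remaining subunits come from nuclear genes. Macrophages draw on this chain to different degrees, with oxidative phosphorylation associated with alternative activation and glycolysis with the response to bacterial lipopolysaccharide.

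Several features of the sequence bear on how reads can be assigned to these genes. The first pair of sequences is the 2 tRNAs with the most reads, mt-Tl1 for leucine (chrM:2676-2750, plus strand) and mt-Ts1 for serine (chrM:6870-6938, minus strand), with the anticodon in capitals, both from GENCODE M21 transcripts of GRCm38.
mt-Tl1: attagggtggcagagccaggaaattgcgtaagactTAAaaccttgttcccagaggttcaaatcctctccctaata
mt-Ts1: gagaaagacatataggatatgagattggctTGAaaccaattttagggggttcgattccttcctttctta
The next pair is shown because each holds 2 coding genes that share bases on 1 RNA, so reads there belong to both. The first runs over the junction of mt-Atp8 and mt-Atp6 (chrM:7907-7989, plus strand) with the 43 shared bases in capitals. The second is the junction of mt-Nd4l and mt-Nd4 (chrM:10147-10193, plus strand) with the 7 shared bases in capitals.
mt-Atp8 and mt-Atp6: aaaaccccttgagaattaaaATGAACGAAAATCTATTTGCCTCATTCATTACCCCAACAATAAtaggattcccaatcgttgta
mt-Nd4l and mt-Nd4: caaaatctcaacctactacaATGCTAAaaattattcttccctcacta
The last pair compares 60 bases of mt-Co1 (chrM:5787-5846, plus strand) with the same stretch of Gm13340, a copy of it in the nuclear genome (chr2:22589129-22589188, minus strand), with the 4 differing bases in capitals. Over the full 1545 bases the 2 sequences differ at 37.
mt-Co1: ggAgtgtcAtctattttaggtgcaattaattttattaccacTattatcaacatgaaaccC
Gm13340: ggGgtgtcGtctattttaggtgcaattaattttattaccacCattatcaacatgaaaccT

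The libraries held 55882693 to 64868123 counted reads after BSN-37 and 60437875 to 65456020 after PBS. The summed level of 7 macrophage markers was 15200 to 17851 FPKM (fragments scaled to gene length and library size) after BSN-37 and 15055 to 17532 FPKM after PBS. That sum mostly reflects Lyz2, which alone had 13215 to 15802 FPKM after BSN-37 and 13303 to 15603 FPKM after PBS. All 5 T cell markers together stayed at or below 0.487 FPKM after BSN-37 and 0.317 FPKM after PBS. The 4 mast cell markers summed to 0.120, 0.402 and 0.365 FPKM after BSN-37, against 0.0218, 0.0857 and 0.119 FPKM after PBS, without overlap, and among them Fcer1a was at 0 in every library. The 4 eosinophil markers summed to 0.398 to 0.542 FPKM after BSN-37 and 0.228 to 0.415 FPKM after PBS, with Prg2 at 0 in every library. The 4 monocyte markers summed to 231, 237 and 140 FPKM after BSN-37, against 64.1, 112 and 84.0 FPKM after PBS. Markers of B cells (6 genes) summed to 91.4, 105 and 46.8 FPKM after BSN-37, against 30.8, 49.4 and 31.1 FPKM after PBS, and those of neutrophils (6 genes) to 132, 230 and 119 FPKM, against 77.5, 125 and 102 FPKM. The monocyte sums did not overlap between the groups. Those of mast cells were near 0 and apart only by 0.120 against 0.119 FPKM. Kit among them overlapped, with 0.0896 FPKM in BSN-37 pool 3 and 0.119 FPKM in PBS pool 3. The part of these other cells in the values below was not tested.

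Mitochondrial RNA made up 1.02%, 0.665% and 0.677% of counted reads in BSN-37 pools 1 to 3, against 0.260%, 0.597% and 1.00% in PBS pools 1 to 3. The group means were 0.788% ± 0.203 after BSN-37 and 0.619% ± 0.371 after PBS (SD, n = 3 each), and the groups overlapped. BSN-37 pool 1 and PBS pool 3 were nearly alike at the top, while PBS pool 1 stood lowest. In these bulk libraries, fewer cells of a type and less RNA per cell cannot be told apart. Nearly all of the mitochondrial reads came from the coding genes, which took 93.5% to 95.6% of them after BSN-37 and 93.4% to 97.98% after PBS. The rRNAs took 3.99% to 6.05% after BSN-37 and 1.68% to 6.16% after PBS. The tRNAs took under 1% in every library, with 0.407% to 0.492% after BSN-37 and 0.345% to 0.425% after PBS.

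A fit over all 17236 genes with at least 10 reads in at least 3 libraries called 0 genes at an adjusted p under 0.05 with edgeR's quasi-likelihood test, a background of 0%, and 0 mitochondrial genes. At an unadjusted p under 0.05, 1247 genes (7.23%) passed in the whole table and 0 of the 29 mitochondrial genes that met the read minimum. The adjusted p of those 29 genes was between 0.690 and 0.995 with edgeR. DESeq2 called 121 genes (0.702%), none of them mitochondrial. It put 1 of the 29 mitochondrial genes at an unadjusted p under 0.05, beside 8.13% of all genes. For mt-Rnr1 it gave no p-value, and for mt-Te, mt-Tt and mt-Tp no adjusted p, so DESeq2 could not call these genes. With limma on log2(FPKM + 1), 5 of the 29 had an unadjusted p under 0.05, beside 7.32% of all genes, and none passed after adjustment (lowest adjusted p 0.609). These were mt-Tw, mt-Ta, mt-Tn, mt-Nd3 and mt-Atp6. In PBS pool 1 the FPKM of the tRNAs mt-Ta and mt-Tn implied 1.26 and 1.31 times the annotated gene length. For mRNAs and rRNAs it was at most 1.22 times in any library, so FPKM ranks these tRNAs less evenly. Among genes with at least 1 FPKM in 3 libraries, edgeR put 2 of 30 mitochondrial genes there, beside 8.23% of all genes. The fitted fold change lay above 0 for 25 of the 29 genes, with a median of 0.65 on the log2 scale, beside 8522 of all 17236 genes and a median of -0.00. That median was 0.38 without BSN-37 pool 1, 0.23 without PBS pool 1 and 1.35 without PBS pool 3, and in the last case 16 of the 29 genes had an unadjusted edgeR p under 0.05, beside 8.15% of all genes in that fit. Leaving out PBS pool 3 also moved the fold change of 16 of the 29 genes by more than 1.5 times. The 15 coding and rRNA genes passed the minimum in every library, the lowest count being 92 reads for mt-Nd3 in PBS pool 1. The other 8 mitochondrial genes, all tRNAs, did not reach the read minimum.

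**Figure D1:**
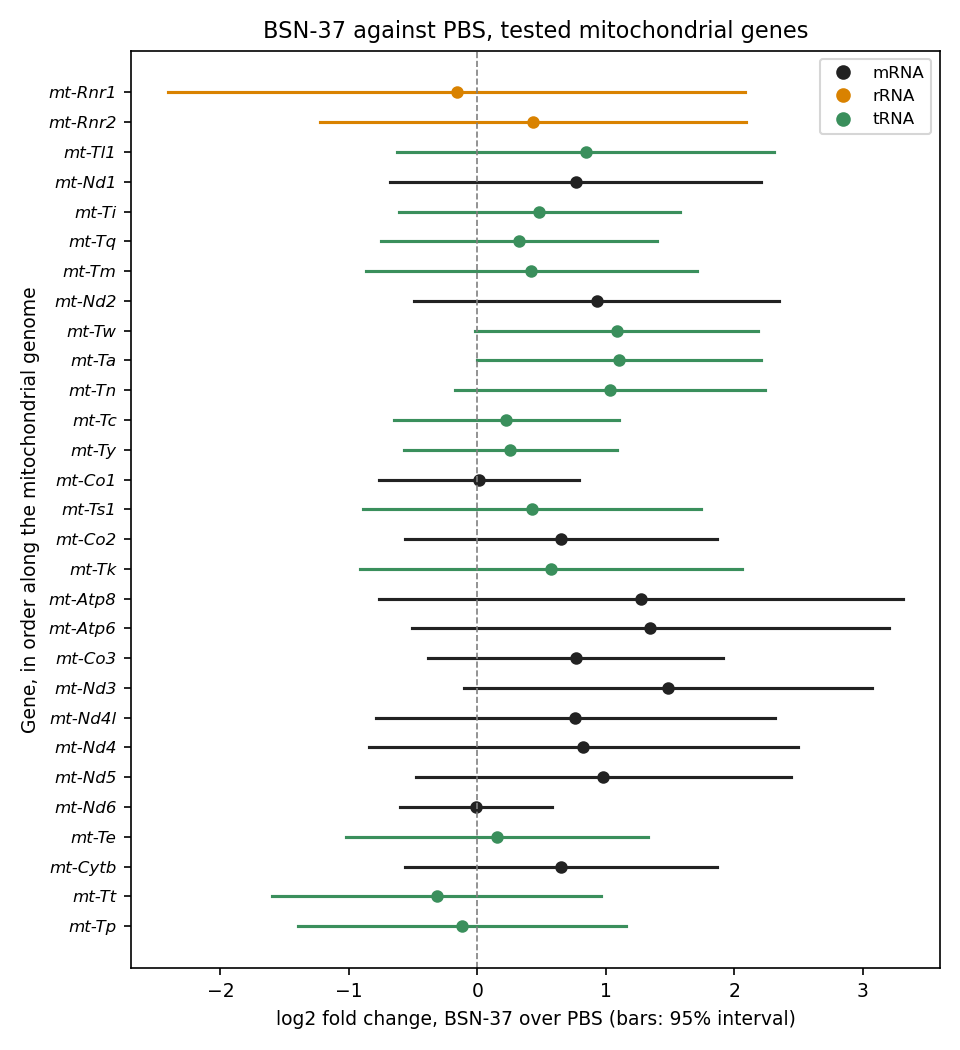
Fitted log2 fold change of BSN-37 over PBS (x axis) for the 29 mitochondrial genes that met the read minimum, in genome order from top to bottom, with bars for the 95% interval of edgeR's quasi-likelihood fit. All 29 intervals include 0, from the narrow one of mt-Nd6 (-0.60 to 0.58) to the wide one of mt-Rnr1 (-2.41 to 2.08).

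The spread between pools was wide and lay mostly among the PBS pools. Across the 29 genes the median SD of log2 CPM (counts scaled to library size) was 0.52 among BSN-37 pools and 1.32 among PBS pools, beside 0.24 and 0.27 over all genes tested. PBS pools varied more than BSN-37 pools in 26 of the 29 genes. PBS pool 1 was the lowest of the 6 libraries in 27 of the 29, all 13 coding genes among them. The highest library was BSN-37 pool 1 in 22 genes and PBS pool 3 in the other 7. The ratio of the highest to the lowest library had a median of 6.69 and ran between 2.20 for mt-Nd6 and 49.7 for mt-Atp8, beside a median of 1.78 over all genes tested. Among BSN-37 pools alone that ratio was 1.30 to 2.76, and among PBS pools alone it was 1.73 to 32.1.

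**Figure D2:**
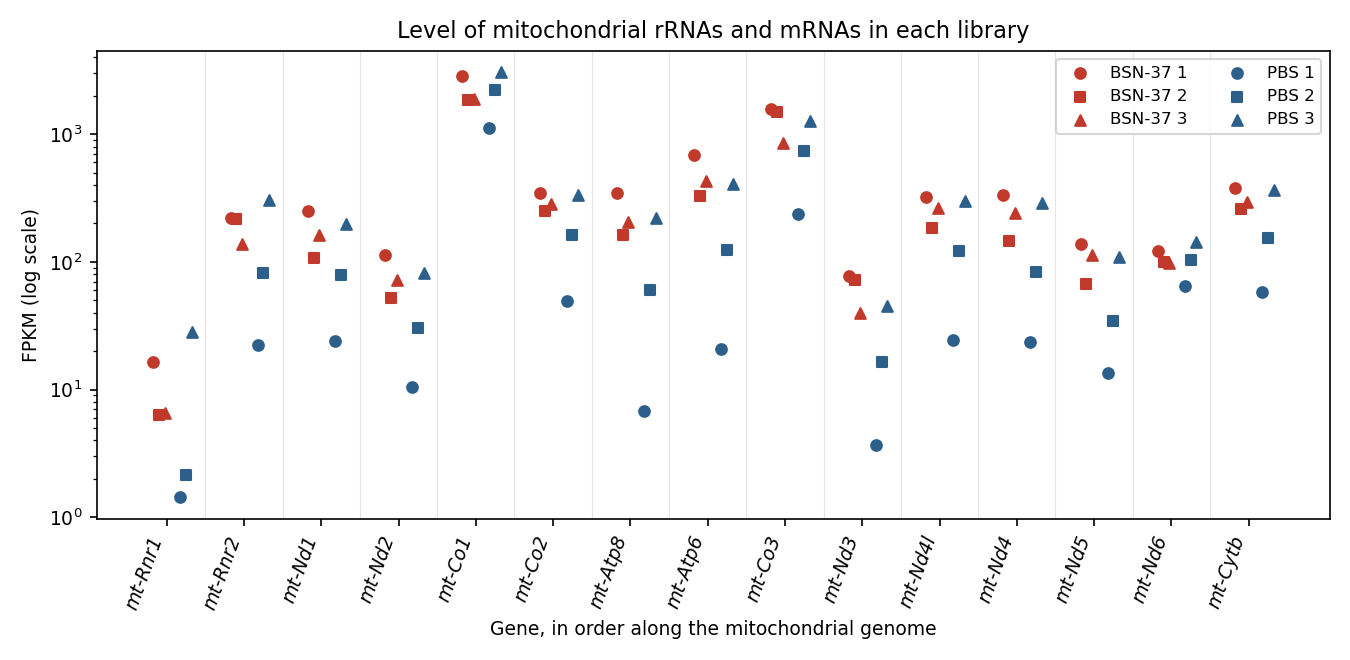
FPKM on a log axis of the 2 rRNAs and 13 coding genes in each library, in genome order along the x axis, with BSN-37 pools left and PBS pools right within each gene. PBS pool 1 is the lowest point in every gene, and the gap closes most at mt-Co1 and mt-Nd6, where the highest library is 2.74 and 2.20 times the lowest in CPM.

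The catalytic core of complex IV is encoded by mt-Co1, mt-Co2 and mt-Co3, the 3 large subunits of cytochrome c oxidase. The level of mt-Co1, which holds the site where oxygen is reduced, was 2866, 1843 and 1875 FPKM in BSN-37 pools, against 1114, 2216 and 3067 FPKM in PBS pools. The groups overlapped and their means were close, and the fitted log2 fold change of 0.01 had a 95% interval of -0.77 to 0.79 (edgeR adjusted p = 0.994). The level of mt-Co2, the subunit that takes electrons from cytochrome c, was 344, 250.3 and 284 FPKM in BSN-37 pools, against 49.5, 163 and 333 FPKM in PBS pools. Its BSN-37 values lay close together, while PBS pools 1 and 2 lay below all of them and PBS pool 3 among them (log2 fold change 0.65, interval -0.57 to 1.87). The level of mt-Co3, a core subunit without redox centres, was 1566, 1488 and 855 FPKM in BSN-37 pools, against 236, 736 and 1268 FPKM in PBS pools. Here BSN-37 pool 3 fell within the PBS range, and the log2 fold change was 0.77 (interval -0.38 to 1.91, edgeR adjusted p = 0.757).

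The genes of ATP synthase, mt-Atp6 and mt-Atp8, encode 2 subunits of its membrane part and share 1 mRNA. The level of mt-Atp6, part of the proton channel, was 688, 327 and 427 FPKM in BSN-37 pools, against 20.8, 124 and 409 FPKM in PBS pools. That of mt-Atp8 was 347, 163 and 204 FPKM in BSN-37 pools, against 6.83, 59.97 and 222 FPKM in PBS pools. For both genes PBS pools 1 and 2 lay below every BSN-37 pool and PBS pool 3 within them. The log2 fold change was 1.35 ± 0.82 (SE) for mt-Atp6, with an interval of -0.51 to 3.21 and an edgeR adjusted p of 0.748. For mt-Atp8 it was 1.27 ± 0.90 (SE), with an interval of -0.77 to 3.31 and an edgeR adjusted p of 0.766. Without PBS pool 3 these log2 fold changes were 2.74 and 2.84, without PBS pool 1 they were 0.83 and 0.73, and limma on log2(FPKM + 1) gave 2.14 and 2.26. The level of mt-Atp8 relative to mt-Atp6, read from the same RNA, was 0.504, 0.499 and 0.478 in BSN-37 pools, against 0.329, 0.482 and 0.542 in PBS pools. That ratio varied 1.65-fold over the 6 libraries, while the 2 levels themselves varied more than 30-fold in CPM, by 32.6 times for mt-Atp6 and 49.7 times for mt-Atp8.

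Complex I takes electrons from NADH, and its 7 mitochondrial subunits form most of the membrane arm. The level of mt-Nd1, at the joint of the 2 arms, was 251, 107 and 162 FPKM in BSN-37 pools, against 24.1, 78.5 and 197 FPKM in PBS pools. That of mt-Nd2, a proton-pumping subunit, was 114, 52.1 and 71.8 FPKM in BSN-37 pools, against 10.4, 30.2 and 81.4 FPKM in PBS pools. In both, PBS pools 1 and 2 were below every BSN-37 pool and PBS pool 3 ranked second of all 6 libraries. The log2 fold changes were 0.77 (interval -0.68 to 2.21) and 0.93 (interval -0.49 to 2.35). The level of mt-Nd3, a small subunit near the joint, was 76.9, 72.1 and 40.1 FPKM in BSN-37 pools, against 3.68, 16.5 and 45.4 FPKM in PBS pools. It had the largest fitted fold change of the 29 genes, a log2 value of 1.48 ± 0.70 (SE) with an interval of -0.10 to 3.07, and missed the threshold (unadjusted edgeR p of 0.0635 and adjusted p of 0.693). Its log2 fold change was 2.63 without PBS pool 3 and 0.99 without PBS pool 1. Only PBS pool 3 overlapped with the BSN-37 values, and did so with 1 pool.

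The antiporter-like subunits mt-Nd4 and mt-Nd5 and the small mt-Nd4l were also lowest in PBS pool 1. The level of mt-Nd4 was 335, 147 and 241 FPKM in BSN-37 pools, against 23.5, 83.7 and 291 FPKM in PBS pools. That of mt-Nd4l, on the same RNA, was 321, 183 and 265 FPKM in BSN-37 pools, against 24.2, 121 and 297 FPKM in PBS pools. For both, PBS pool 3 ranked second behind BSN-37 pool 1, and the log2 fold changes were 0.83 (interval -0.85 to 2.50) and 0.76 (interval -0.79 to 2.32). The level of mt-Nd4l relative to mt-Nd4 was 0.957, 1.24 and 1.10 in BSN-37 pools, against 1.03, 1.44 and 1.02 in PBS pools. The level of mt-Nd5 was 138, 67.5 and 114 FPKM in BSN-37 pools, against 13.4, 34.4 and 110.1 FPKM in PBS pools, with a log2 fold change of 0.98 (interval -0.48 to 2.44).

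The only coding gene of the light-strand transcript, mt-Nd6, another membrane subunit of complex I, varied least. Its level was 121, 99.8 and 97.4 FPKM in BSN-37 pools, against 64.8, 104 and 144 FPKM in PBS pools. The PBS values enclosed the BSN-37 values, and the log2 fold change of -0.01 had an interval of -0.60 to 0.58 (edgeR adjusted p = 0.995). Relative to mt-Nd5, with which it overlaps by 14 bases on the opposite strand, mt-Nd6 stood at 0.879, 1.48 and 0.855 in BSN-37 pools, against 4.83, 3.02 and 1.31 in PBS pools. The sources used here do not say whether reads were counted by strand. If they were not, reads from the opposite strand could be listed under mt-Nd6 anywhere along it, not only within the 14 shared bases. Its listed level therefore cannot be taken as light-strand RNA alone. Complex III has a single mitochondrial subunit, cytochrome b, which carries both of its quinone sites. Its gene mt-Cytb had 379, 257 and 292 FPKM in BSN-37 pools, against 58.1, 153 and 364 FPKM in PBS pools, again with PBS pools 1 and 2 below all BSN-37 pools (log2 fold change 0.65, interval -0.56 to 1.87).

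The order of levels among the coding genes, by the geometric mean FPKM over the 6 libraries, began with mt-Co1 at 2054 and mt-Co3 at 872. There followed mt-Atp6 at 216, mt-Cytb at 213 and mt-Co2 at 201, then mt-Nd4l at 154, mt-Nd4 at 138 and mt-Nd1 at 109. Below these stood mt-Nd6 at 102, mt-Atp8 at 101, mt-Nd5 at 61.5, mt-Nd2 at 47.1 and mt-Nd3 at 29.2. Neighbours in this order kept their rank in all 6 libraries for mt-Co1 over mt-Co3, mt-Co3 over mt-Atp6, mt-Co2 over mt-Nd4l and mt-Nd5 over mt-Nd2. The closest neighbours were not ordered the same way in every library, as with mt-Atp6 above mt-Cytb in 4 and mt-Nd6 above mt-Atp8 in 2 of the 6.

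The make-up of the coding RNA also differed between libraries. Of the summed FPKM of the 13 coding genes, mt-Co1 held 38.0%, 36.5% and 38.0% in BSN-37 pools, against 67.5%, 56.5% and 44.9% in PBS pools. ATP synthase genes held 13.7%, 9.68% and 12.8% in BSN-37 pools, against 1.67%, 4.70% and 9.23% in PBS pools. Neither share overlapped between the groups, and PBS pool 3 came nearest to the BSN-37 pools in both. Complex I genes held 18.0%, 14.4% and 20.1% in BSN-37 pools, against 9.95%, 11.9% and 17.1% in PBS pools, and these overlapped. Complex III held 5.02% to 5.93% in BSN-37 pools and 3.52% to 5.34% in PBS pools. These shares were set side by side after their values had been seen and have no test. The share of mt-Co1 was highest in PBS pool 1, where mitochondrial RNA as a whole was lowest. Reads listed under copies of these genes in the nuclear genome are left out of the shares. In PBS pool 1 the chromosome 1 copy held 31.9% of the reads of copy and gene together for mt-Co3. The corresponding values were 31.4% for mt-Atp6 and 2.09% for mt-Co1, whose copy aligns over only 483 of its 1545 bases. The part of these copy reads in the mt-Co1 share was not tested.

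**Figure D3:**
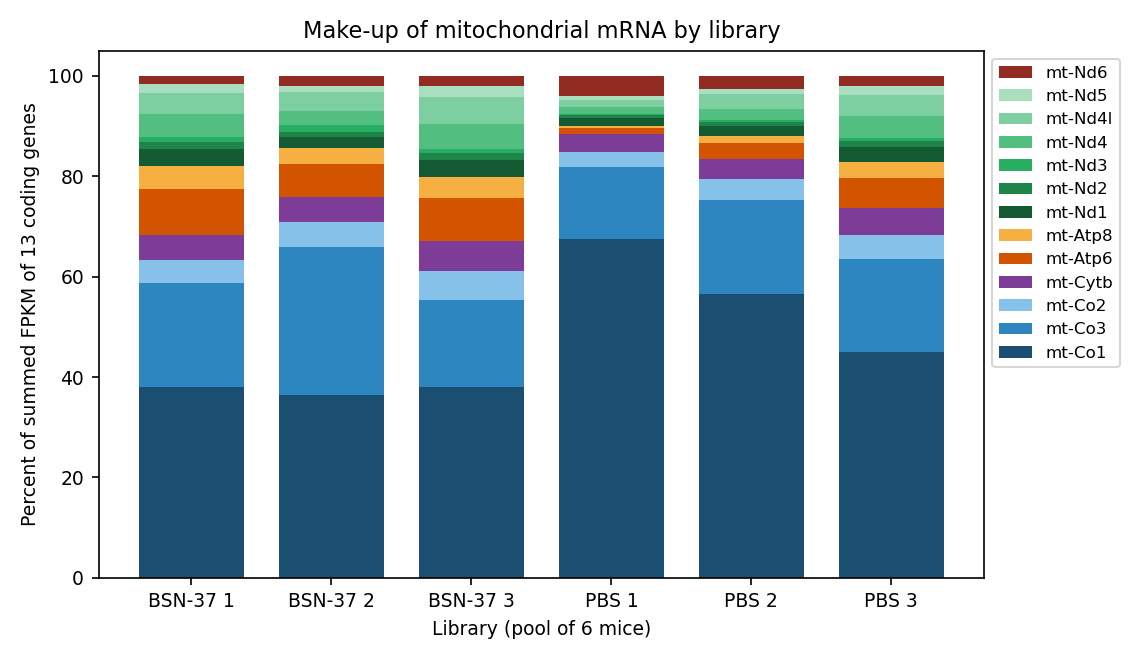
Stacked bars of each coding gene's percent of the summed FPKM of the 13 mitochondrial coding genes (y axis) in the 3 BSN-37 and 3 PBS libraries, each a pool of 6 mice. The bottom block, mt-Co1, is 36.5% to 38.0% in the BSN-37 pools and 44.9% to 67.5% in the PBS pools, and the orange ATP synthase blocks are thinnest in PBS pool 1.

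Set against single genes, the level of mt-Co1 was 8.33, 7.36 and 6.60 times that of mt-Co2 in BSN-37 pools, against 22.5, 13.6 and 9.21 times in PBS pools. Copy reads are left out here too. In PBS pool 1 the chromosome 1 copy held 33.0% of copy and gene reads for mt-Co2 and 2.09% for mt-Co1. The mt-Co1 copy aligns over only 483 of the 1545 bases of that gene. The level of mt-Co2 relative to mt-Cytb moved less, at 0.909, 0.973 and 0.972 in BSN-37 pools, against 0.851, 1.06 and 0.914 in PBS pools. The level of mt-Nd6 relative to the mean of the 12 heavy-strand coding genes was 0.196, 0.242 and 0.242 in BSN-37 pools, against 0.491, 0.326 and 0.258 in PBS pools. These FPKM ratios did not overlap between the groups, but the same ratio taken on read counts did, with 0.0938, 0.1173 and 0.1146 in BSN-37 pools, against 0.190, 0.137 and 0.1165 in PBS pools.

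The 2 mitochondrial rRNAs, the RNA cores of the mitochondrial ribosome, are read here only as what remained after rRNA depletion, and how completely each library was depleted was not measured. The level of mt-Rnr1, the small-subunit 12S rRNA, was 16.5, 6.36 and 6.53 FPKM in BSN-37 pools, against 1.43, 2.16 and 28.3 FPKM in PBS pools. The level of mt-Rnr2, the large-subunit 16S rRNA, was 219.8, 214.7 and 137 FPKM in BSN-37 pools, against 22.5, 81.9 and 306 FPKM in PBS pools. For both, the PBS pools enclosed the BSN-37 pools, with PBS pool 1 lowest and PBS pool 3 highest. The log2 fold changes were -0.16 for mt-Rnr1 (interval -2.41 to 2.08, edgeR adjusted p = 0.981) and 0.43 for mt-Rnr2 (interval -1.22 to 2.09, edgeR adjusted p = 0.902). Without PBS pool 3 the log2 fold change of mt-Rnr1 was 2.44, at an unadjusted edgeR p of 0.00122 and an adjusted p of 0.464. The 16S level was 13.3, 33.7 and 20.99 times the 12S level in BSN-37 pools, against 15.7, 38.0 and 10.8 times in PBS pools. The summed rRNA level relative to the summed mRNA level was 0.0313, 0.0437 and 0.0291 in BSN-37 pools, against 0.0145, 0.0214 and 0.0489 in PBS pools.

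The tRNAs bring amino acids to the mitochondrial ribosome, and few reads were listed under them. The FPKM of tRNAs implied a gene length of 1.17 to 5.32 times the annotated one, and of 1.17 to 1.39 times for those that met the read minimum. For mRNAs and rRNAs it was 1.16 to 1.22 times, so tRNAs are given as reads. Those under the read minimum were mt-Tf, mt-Tv, mt-Td, mt-Tg, mt-Tr, mt-Th, mt-Ts2 and mt-Tl2, each with 0 to 15 reads per library, all on the heavy-strand transcript. The 14 that met it had 6 to 1764 reads per library and included all 8 light-strand tRNAs and 6 of the 14 heavy-strand ones. Whether reads were counted by strand is not stated. Reads listed under light-strand tRNAs may therefore include RNA of the opposite strand, as for mt-Ts1, which overlaps the end of mt-Co1. The serine tRNA mt-Ts1 led with 1649, 822 and 1042 reads in BSN-37 pools, against 242, 786 and 1764 reads in PBS pools. The leucine tRNA mt-Tl1 had 363, 190 and 245 reads in BSN-37 pools, against 32, 132 and 310 reads in PBS pools. PBS pool 1 was lowest in both, and mt-Tl1 reads stood at 1.94% to 2.62% of those of its neighbour mt-Nd1 in all 6 libraries. The tyrosine tRNA mt-Ty had 213, 185 and 131 reads in BSN-37 pools, against 86, 174 and 205 reads in PBS pools. The cysteine tRNA mt-Tc had 97, 87 and 63 reads in BSN-37 pools, against 42, 83 and 96 reads in PBS pools. These 2 neighbours ranged less between libraries than mt-Ts1 and mt-Tl1, with ratios of the highest to the lowest of 2.60 and 2.42 in CPM.

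The 3 tRNAs mt-Tw, mt-Ta and mt-Tn, for tryptophan, alanine and asparagine, lie next to each other on chrM between positions 4950 and 5159. They were the only ones of the 29 genes whose groups did not overlap in CPM, all higher after BSN-37, beside 6.45% of all genes tested that were higher without overlap and 7.87% that were lower. Reads of mt-Ta were 83, 58 and 55 in BSN-37 pools, against 13, 42 and 41 in PBS pools. Reads of mt-Tw were 51, 42 and 37 in BSN-37 pools, against 10, 25 and 29 in PBS pools. PBS pool 1 was far below the rest in both, and the other PBS pools also lay under the BSN-37 range. Reads of mt-Tn were 54, 30 and 37 in BSN-37 pools, against 9, 30 and 23 in PBS pools. Its groups tied at 30 reads and were apart only after scaling, by 0.486 CPM in BSN-37 pool 2 against 0.465 CPM in PBS pool 2. The log2 fold change was 1.10 for mt-Ta (interval -0.01 to 2.21, unadjusted edgeR p of 0.0510 and adjusted p of 0.690) and 1.08 for mt-Tw (interval -0.02 to 2.18, unadjusted edgeR p of 0.0531 and adjusted p of 0.690). For mt-Tn it was 1.03 (interval -0.17 to 2.24, unadjusted edgeR p of 0.0846 and adjusted p of 0.715). Over the other tRNAs that met the minimum the log2 fold change was between -0.32 for mt-Tt and 0.84 for mt-Tl1.

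Nuclear copies of mitochondrial genes were listed with reads of their own, in numbers that differed between libraries. A search of annotated transcripts found 17 copies of 11 members at 90% identity or more over at least 100 bases. Of these copies 15 were in the deposited table. All tRNAs are shorter than 100 bases, so copies of them could not be found in this way. A block of 7 on chromosome 1 (chr1:24611535-24616197, GRCm38) matches mt-Nd4l, mt-Nd3, mt-Co3, mt-Atp6, mt-Co2 and parts of mt-Nd4 and mt-Co1. Over the aligned bases 5 of these 7 are identical to the mitochondrial gene, so their reads cannot be told apart by sequence. Reads listed under all 15 copies numbered 3432, 4315 and 3423 in BSN-37 pools, against 11286, 6796 and 2743 in PBS pools, or 0.601%, 1.07% and 0.780% of the mitochondrial reads after BSN-37, against 7.19%, 1.83% and 0.418% after PBS. PBS pool 1, with the fewest mitochondrial reads, had the most copy reads.

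For mt-Co3, the chromosome 1 copy Gm28437 held 1.60%, 2.59% and 1.04% of the reads of copy and gene together in BSN-37 pools, against 31.9%, 7.35% and 1.23% in PBS pools. For mt-Atp6, the copy Gm10925 held 1.37%, 2.74% and 0.970% in BSN-37 pools, against 31.4%, 1.57% and 0.941% in PBS pools. In PBS pool 1 the shares were similar for mt-Co2 (33.0%), mt-Nd4l (34.4%) and mt-Nd3 (37.8%), and lower for mt-Nd4 (16.2%) and mt-Co1 (2.09%). The copies of mt-Nd4 and mt-Co1 align over only 876 of 1378 and 483 of 1545 bases. Their shares, taken over reads of the whole gene, are therefore not on the same footing as the others. With the copies' reads added to their genes, the ratio of the highest to the lowest library was 23.4 for mt-Atp6, against 33.6 without them on the same scale. It was 4.66 for mt-Co3, against 6.73, and 4.80 for mt-Co2, against 7.06. No copy of mt-Atp8 was found among the annotated transcripts searched, so its ratio could not be adjusted in this way. On chrM it lies between mt-Co2 and mt-Atp6. On chromosome 1 the copy of mt-Atp6 ends at 24614651 and that of mt-Co2 starts at 24614885. Whether the bases between these copies match mt-Atp8 was not tested, since only annotated transcripts were searched. Genes whose listed copies held no reads were also lowest in PBS pool 1, as mt-Cytb shows with a ratio of 6.61 either way. With the copies added, edgeR again called 0 mitochondrial genes, with 25 of the 29 log2 fold changes above 0 and a median of 0.60.

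Nuclear genes whose proteins work with these RNAs did not share their spread. The level of 76 nuclear-encoded subunits of the respiratory chain and ATP synthase, as the median log2 deviation from each gene's own mean, was 0.08, 0.06 and -0.16 in BSN-37 pools, against 0.12, -0.10 and 0.07 in PBS pools. For the 13 mitochondrial mRNAs that median was 1.19, 0.18 and 0.56 in BSN-37 pools, against -2.12, -0.50 and 0.83 in PBS pools. The 77 mitochondrial ribosomal proteins ranged over 0.24 in this measure, the 13 mitochondrial mRNAs over 3.32 and the 2 rRNAs over 4.02. PBS pool 1, the lowest in mitochondrial mRNA, was the highest in both nuclear sets.

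**Figure D4:**
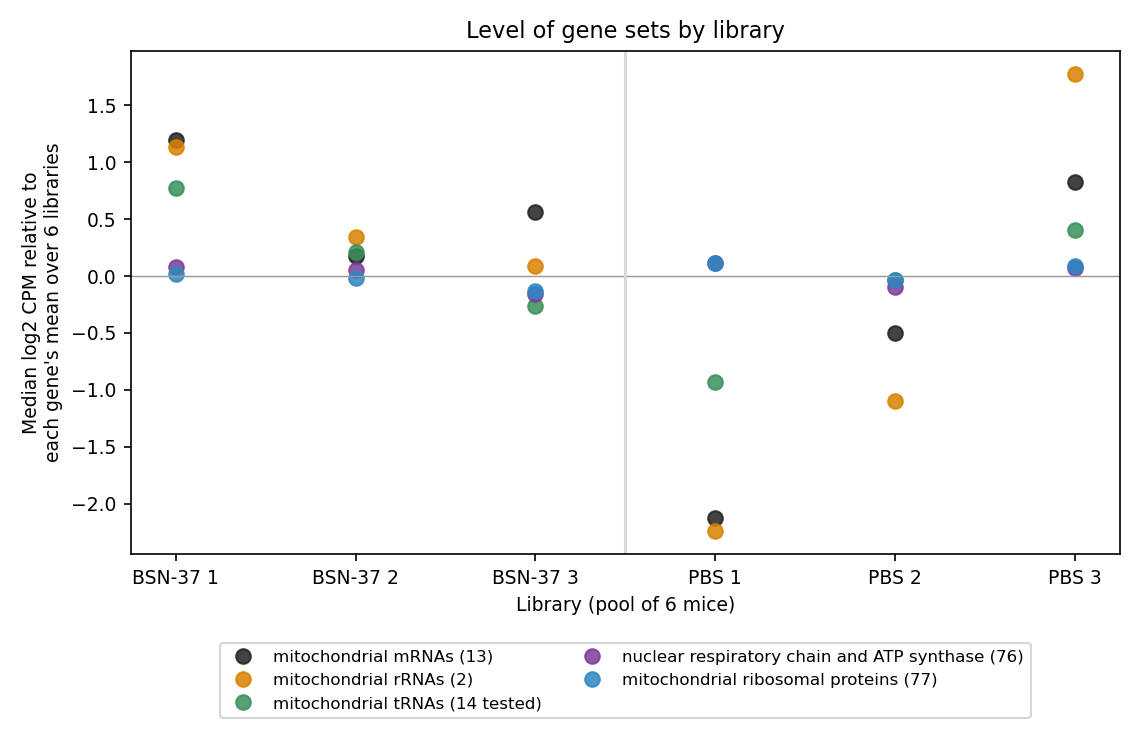
Median log2 CPM relative to each gene's mean over the 6 libraries (y axis) for the mitochondrial mRNAs, rRNAs and tested tRNAs and for 2 sets of nuclear genes, with BSN-37 pools left of PBS pools. Each nuclear set spans at most 0.28 on this scale, while the mitochondrial mRNAs lie at -2.12 in PBS pool 1 and at 1.19 in BSN-37 pool 1.

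None of the 7 lists of nuclear genes for mitochondrial functions held a gene called by edgeR at an adjusted p under 0.05. At an unadjusted p under 0.05, where 3.69% of all genes passed as higher and 3.54% as lower, the 76 respiratory and ATP synthase genes had 1 in each direction. Cox8a, a small subunit of complex IV, averaged 133 ± 4.56 FPKM in BSN-37 pools and 174 ± 10.5 FPKM in PBS pools (log2 fold change -0.42, unadjusted edgeR p of 0.00665 and adjusted p of 0.605). Atp5l, a membrane subunit of ATP synthase, averaged 86.9 ± 12.1 FPKM in BSN-37 pools and 62.0 ± 4.33 FPKM in PBS pools (log2 fold change 0.44, unadjusted edgeR p of 0.00869 and adjusted p of 0.605). Of the 77 mitochondrial ribosomal protein genes, 2 passed as higher and 5 as lower, and their median log2 fold change was -0.12. Those of lowest p were Mrpl38 of the large subunit (log2 fold change -0.55, edgeR adjusted p = 0.605) and Mrps18b of the small subunit (log2 fold change -0.41, edgeR adjusted p = 0.605).

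Among 9 tested genes of mitochondrial transcription 0 passed in either direction, with a median log2 fold change of 0.04. The lowest p in that list belonged to Mrpl12, a ribosomal protein reported to bind the mitochondrial RNA polymerase (log2 fold change -0.37, edgeR adjusted p = 0.690), and Mterf4, which helps ribosome assembly (log2 fold change -0.31, edgeR adjusted p = 0.757). Of 24 genes of RNA processing and decay, 0 passed as higher and 1 as lower. It was Elac2, which cuts the 3′ ends of tRNAs, at 6.63 ± 0.824 FPKM in BSN-37 pools and 8.24 ± 0.964 FPKM in PBS pools (log2 fold change -0.38, unadjusted edgeR p of 0.0297 and adjusted p of 0.661). Next by p came Ptcd2, a pentatricopeptide repeat protein (log2 fold change -0.30, edgeR adjusted p = 0.699). Of 27 genes that modify rRNAs or tRNAs, 0 passed as higher and 1 as lower, the pseudouridine synthase Pus1 (log2 fold change -0.34, edgeR adjusted p = 0.679). The rRNA methyltransferase Nsun4 followed (log2 fold change -0.36, edgeR adjusted p = 0.715).

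Of 17 genes of mitochondrial DNA maintenance, 0 passed as higher and 1 as lower, Atad3a, a membrane ATPase of the nucleoid (log2 fold change -0.33, edgeR adjusted p = 0.661). Ssbp1, which binds single-stranded mitochondrial DNA, averaged 11.5 ± 0.976 FPKM in BSN-37 pools and 8.50 ± 2.08 FPKM in PBS pools (log2 fold change 0.43, unadjusted edgeR p of 0.0622 and adjusted p of 0.693). Its lowest library was PBS pool 1 at 6.13 FPKM. In the list for mitochondrial biogenesis and mass, 0 of 16 tested genes passed in either direction. Gabpa, a transcription factor of respiratory genes, had a log2 fold change of 0.37 (edgeR adjusted p = 0.690), and citrate synthase, Cs, one of -0.27 (edgeR adjusted p = 0.707).

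Some other abundant RNAs moved in part with the mitochondrial ones. Rn7sk, a nuclear RNA that holds back transcription elongation, had 16019, 10518 and 8753 FPKM in BSN-37 pools, against 10037, 9199 and 13444 FPKM in PBS pools. Rpph1, the RNA of nuclear RNase P, had 2079, 1171 and 995 FPKM in BSN-37 pools, against 952, 1138 and 1865 FPKM in PBS pools. Both were highest in BSN-37 pool 1 and PBS pool 3, the 2 libraries with the most mitochondrial RNA, and their part in the mitochondrial values was not tested. Malat1, an RNA kept in the nucleus, had 846, 771 and 978 FPKM in BSN-37 pools, against 664, 1052 and 962 FPKM in PBS pools. It was lowest in PBS pool 1, as mitochondrial RNA was, but highest in PBS pool 2. Globin and other erythroid genes summed to 0.862, 0.165 and 33.9 FPKM in BSN-37 pools, against 1.28, 20.1 and 0.395 FPKM in PBS pools, an order that differs from the mitochondrial one. The deposited table of 1303 circular RNA records held 0 on the mitochondrial genome and 0 with a mitochondrial host gene.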

How the data were processed

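Directional, rRNA-depleted libraries of total RNA were sequenced from the 6 pools, per the labels' protocols, although the design text describes microarrays. The gene table deposited by the authors holds whole-number read counts and FPKM per library, per the file headers. Reads were placed on GRCm38, a build named in the submitters' processing notes. Which aligner and counter were used, and how strand and reads with several matches were treated, is not stated in these sources. Counts were fitted with edgeR 4.0.16 in R 4.3.3 (TMM factors, glmQLFit, glmQLFTest, two-sided, Benjamini-Hochberg over 17236 genes, threshold 0.05, at least 10 reads in at least 3 libraries, no covariates). DESeq2 1.42.0, limma 3.58.1 on log2(FPKM + 1) and log2(FPKM + 0.1), other scalings and filters and leaving out each library were alternatives. Levels across genes are given as FPKM. Nuclear copies were found with BLAST 2.17.0 among GENCODE M21 transcripts (at least 90% identity over 100 bases), which also gave the sequences and coordinates.

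The members and the lists of nuclear genes were chosen with earlier results of these data known. All coding and rRNA genes are named, with the 4 tRNAs of most reads, the 2 of lowest p and the 2 nuclear genes of lowest p per list. mt-Tn, the copies and the ratios of single genes were chosen after their values were seen. Each pool counted as 1 replicate, since every 2 libraries differed by more than sampling noise (chi-square of 61.5 to 197 per degree of freedom), and p-values measure the spread between pools. On simulated counts for 17236 genes, edgeR recovered 4% of 50 genes changed 1.5-fold, 36% at 2-fold, 84% at 3-fold and 90% at 4-fold, and DESeq2 18%, 76%, 94% and 98%. These shares are for genes across the table, whose median within-group SD of log2 CPM was 0.29, and do not carry over to the mitochondrial genes, for which it was 0.96.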

Additional observations from a re-analysis of the deposited data

How the results depend on the processing

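No mitochondrial gene passed an adjusted p of 0.05 under any setting run. DESeq2 gave no adjusted p for mt-Rnr1, mt-Te, mt-Tt and mt-Tp. Over the whole table, edgeR called 0 genes and DESeq2 121, and leaving out 1 library gave 0 to 16 edgeR calls, the 16 without BSN-37 pool 2. The mean log2 mitochondrial share was 0.52 higher after BSN-37, and this difference ran between -0.00 and 0.97 when 1 library was left out. It compares geometric means, not the arithmetic means of the share given above. Of the 29 mitochondrial log2 fold changes, 20 were above 0 without PBS pool 1 and all 29 without PBS pool 3, where the lowest adjusted p was 0.464. Deviations of same-numbered pools from their group means were hardly correlated over all genes tested (0.00763 to 0.0164). A correlation over the whole table cannot show whether some genes share a pairing, so this was not settled. With a replicate block edgeR called 0 genes, 27 of 29 mitochondrial log2 fold changes were above 0 and their median was 1.01, as with limma on log2(FPKM + 1), which gave 1.01. Of the 29 log2 fold changes, 9 changed sign under some setting. Upper-quartile scaling gave -0.00479 for mt-Co1. For mt-Rnr1 the log2 fold change was 0.70 and 0.95 with limma (pseudocounts 1 and 0.1) and 1.05 with the block, and for mt-Nd6 it was 0.093, 0.095 and 0.051. Leaving out 1 library gave -0.79 to 2.44 for mt-Rnr1, -0.062 to 1.86 for mt-Rnr2, -0.24 to 0.32 for mt-Nd6, -0.29 to 0.39 for mt-Co1, -0.0074 to 1.26 for mt-Ts1, -0.11 to 0.38 for mt-Te, -0.017 to 0.44 for mt-Tc, -0.62 to 0.10 for mt-Tt and -0.34 to 0.23 for mt-Tp. The cause was not tested. Depth limits the tRNAs, 8 of which had too few reads for the test, and no interval here covers differences between single mice.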
